A study of Mus musculus with 8 samples.

Results

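The 34 genes described here encode the folding, degradation and stress machinery of the endoplasmic reticulum (ER), and they were followed across 4 groups of mouse CD8+ T cells. They were chosen by name from 18194 genes with a named probe set on the array, but with earlier results of these data known. They comprise 9 chaperones and their helpers, 5 disulphide isomerases, 4 J proteins, 4 genes for the stress sensors and the transcription factor XBP1, 6 genes of ER-associated degradation, 4 of the translocon and its TRAP complex, and 2 subunits of the eIF2α phosphatase. The genes had 87 probe sets with 1 gene symbol, of which 79 passed the filter on dim signal. All 34 genes had a tested probe set, and the brightest one stood for each gene unless another is named.

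Proteins that a cell secretes or displays enter the ER through the SEC61 translocon, where chaperones fold them and isomerases join their disulphide bonds. When unfolded protein builds up, the sensors IRE1, PERK and ATF6 leave the chaperone BiP and switch on the unfolded protein response: IRE1 splices the Xbp1 messenger, PERK phosphorylates eIF2α and slows translation, and ATF6 is cut to a transcription factor. Molecules that fail to fold are pulled back to the cytosol for degradation, and T cells that divide and make effector proteins after stimulation place a load on this machinery.

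The study measured RNA on Affymetrix arrays in a work on how the transcription factor ELF4 controls CD8+ T cell proliferation. CD8+ cells came from the spleens of wild-type C57BL/6 mice or of Elf4-/- knockout mice, whose background strain and age the labels do not give. Naive cells were left untreated, and activated cells spent 3.5 days on plates coated with antibody to CD3, with antibody to CD28 and a T cell growth supplement in the medium. There were 2 arrays in each of the 4 groups (naive wild type, naive knockout, activated wild type, activated knockout), 8 in all. No label says whether the 2 arrays of a group came from different animals or cultures, and the p-values then reflect spread that may be technical. The descriptions of both naive wild-type arrays carry 1 and the same array-file label. Their values differed (r = 0.94 across probe sets, the lowest of the 4 replicate pairs), so they were counted as 2 arrays, and each naive genotype result and the Dnajb9 difference between genotypes rest on that. In bulk RNA, fewer cells of a type and less RNA per cell cannot be told apart.

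Values are MAS5 intensities on a linear scale, given as array 1 and array 2 or as mean ± SD (n = 2). They compare arrays for 1 probe set and not different genes. Folds are on the scale of log2(intensity + 16), which understates changes of dim genes. A change was called where limma's adjusted p (Benjamini-Hochberg over 27348 probe sets) was under 0.05. The small number of arrays limits the precision.

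Several properties of the samples moved with the groups. The arrays' median intensity was 64.1 to 86.2. The Actb ratio, the signal of its 3' probe set over that of its 5' one, was 1.96 to 2.5 on the naive arrays and 5.9 to 11.06 on the activated ones. It did not overlap between genotypes either. Naive wild-type arrays gave 2.13 and 2.5 and naive knockout arrays 1.99 and 1.96. Activated wild-type arrays gave 5.98 and 5.9 and activated knockout arrays 7.44 and 11.06, so the ratio goes with genotype as well as state. Xist signal ran from 60.3 to 172 in naive cells and from 7703 to 10011 in activated cells. The 3' probe set of the Lys spike-in control gave 989 to 1654 and 62726 to 78734 in the same order, so RNA integrity, sex pattern, spike-in level and activation cannot be told apart. Elf4 itself was dim (76.2 to 199) and did not pass between genotypes in naive (adjusted p = 0.891) or activated cells (adjusted p = 0.813, limma), so it does not check the labels. The 5 measured of 7 listed CD8 T cell markers, Cd8a among them, summed to 57298 to 67791 in naive and 12682 to 17174 in activated cells.

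Promoter sequences are shown here because some of the members hold a known motif of ER stress genes. The members were picked as known ER folding and stress genes, so its share among them is not an independent result. The ER stress element, to which ATF6 binds together with NF-Y, was searched on both strands as CCAAT and CCACG with 9 bases of any kind between them, from 250 bases before to 50 after the start of each gene in the RefSeq promoter table (GRCm38.p6). It was found in 8 of the 28 members in the table (28.6%) and in 39 of all 32851 promoters (0.119%). Atf6, Derl1, Hyou1, Manf, Sec61a1 and Ppp1r15b had no entry. Each stretch below runs 5′ to 3′ on the gene's own strand with 20 bases on either side, and capitals mark the match. They are Hspa5 (chr2:34772005-34772063, plus strand), Hsp90b1 with 2 matches (chr10:86705618-86705676 and chr10:86705513-86705571, minus strand), Calr (chr8:84847055-84847113, minus strand), Canx (chr11:50325780-50325838, minus strand), Pdia6 (chr12:17266471-17266529, plus strand) and Dnajc3 (chr14:118937807-118937865, plus strand).
Hspa5: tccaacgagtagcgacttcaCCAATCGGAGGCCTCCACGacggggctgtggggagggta
Hsp90b1, far match: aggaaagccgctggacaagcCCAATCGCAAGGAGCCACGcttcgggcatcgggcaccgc
Hsp90b1, near match: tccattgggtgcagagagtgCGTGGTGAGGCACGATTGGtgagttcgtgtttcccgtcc
Calr: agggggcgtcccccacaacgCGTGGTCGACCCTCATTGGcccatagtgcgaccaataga
Canx: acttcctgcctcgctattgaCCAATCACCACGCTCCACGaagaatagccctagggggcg
Pdia6: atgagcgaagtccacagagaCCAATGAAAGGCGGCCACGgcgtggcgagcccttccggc
Dnajc3: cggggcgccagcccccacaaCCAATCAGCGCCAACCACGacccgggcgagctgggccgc

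The near match of Hsp90b1 and that of Calr lie on the opposite strand, so the motif reads there as its reverse complement. The Hspa5 match lay 65 to 47 bases before the start, and the other matches shown began between 212 and 98 bases before it. Creld2 and Syvn1 held the remaining matches. A shorter form, ER stress element II (ATTGG and CCACG with 1 base between), occurred in 2 members, Dnajb11 and Herpud1 (7.14%, against 0.0365% of all promoters), and the unfolded protein response element TGACGTGG in 0 of 28 (0.676% of all). The 5 letters CCAAT, which the ER stress element contains, were in 21 of 28 members (75.0%) and 37.4% of all promoters. A match is a run of letters and not evidence of binding.

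The comparison of activated with naive wild-type cells asks what happens to these genes when CD8+ T cells are stimulated. After activation 18 of 34 members were higher and 6 lower in wild-type cells, led by Xbp1 and Hsp90b1 among those that rose. Over all genes tested, 45.4% were called, 21.3% higher and 24.1% lower, against 70.6% of the members, 52.9% higher and 17.6% lower. In knockout cells 18 members were higher and 2 lower (58.8%, or 52.9% and 5.88%), against 48.1% of all genes, 21.9% higher and 26.1% lower. The median log2 change was 0.68 in wild-type and 0.57 in knockout cells, beside −0.12 over all genes in each. In wild-type cells the naive and activated arrays did not overlap for 31 members (91.2%, against 72.0% of all genes), and in knockout cells for 25 (73.5%, against 75.2%). With the Actb ratio as a covariate, which differs between the states on every array, 1 member (Xbp1) was called in wild-type and 0 in knockout cells by limma. Centring each array on its median moved the median of all probe sets from −0.15 to 0.03 in wild-type and from −0.16 to −0.04 in knockout cells. Members called in wild-type cells then numbered 21 higher and 3 lower, while 55.2% of all calls were higher, against 44.4% without centring.

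**Figure D1:**
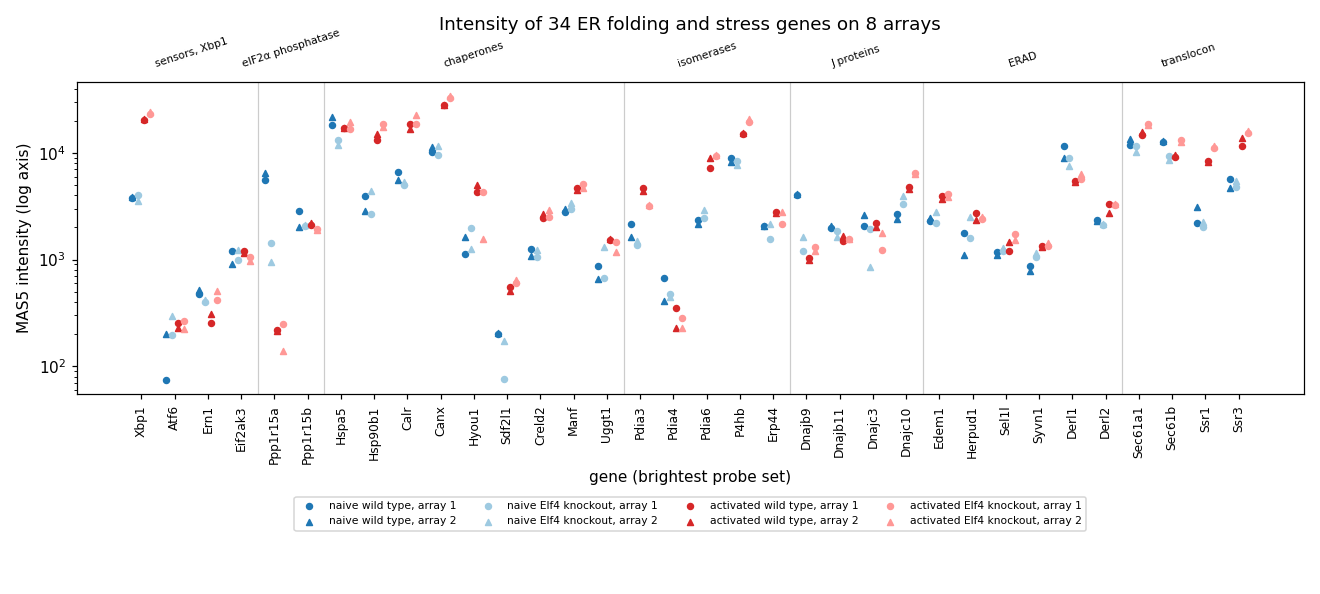
MAS5 intensity (log axis) of the brightest probe set of each of the 34 genes on the 8 arrays, grouped by role; circles are array 1 and triangles array 2 of a group. The activated arrays lie above the naive ones for Xbp1, Hsp90b1, Calr, Canx, Pdia6 and Ssr1, and far below them for Ppp1r15a; heights compare arrays and not genes.

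Xbp1, which encodes the transcription factor that IRE1 activates by splicing, had the smallest p of the members in both genotypes. In wild-type cells it went from 3796 and 3872 when naive to 20330 and 20992 when activated, and in the knockout from 4018 and 3536 to 22981 and 24012. The 4 activated arrays were thus far above the 4 naive ones, by 5.37-fold in wild-type (log2 2.43, SE 0.11, adjusted p = 1.06e-07) and 6.21-fold in knockout cells (log2 2.63, SE 0.11, adjusted p = 5.95e-08). It rose by 2.19 to 2.63 on 3 of its 4 probe sets in both genotypes. The array does not separate the spliced from the unspliced messenger.

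None of the 3 sensor genes rose on its brightest probe set. Ern1, which encodes IRE1, read 478 and 513 in naive and 252 and 306 in activated wild-type cells, a 1.74-fold fall (log2 −0.80, SE 0.23, adjusted p = 0.0174). In knockout cells it read 401 and 419 naive and 413 and 512 activated (log2 0.16, adjusted p = 0.618), and a dim second Ern1 probe set went the other way in wild-type cells (log2 1.71, adjusted p = 0.036). Eif2ak3, which encodes PERK, stayed between 903 and 1239 on all 8 arrays (log2 0.16 and −0.14, adjusted p = 0.554 and 0.605). Atf6 was dim: wild-type cells gave 73.8 and 200 when naive and 253 and 226 when activated, and knockout cells 197 and 297 and then 264 and 225, and it did not pass in either genotype (adjusted p = 0.116 and 0.991). Another Atf6 probe set, dimmer on average over the 8 arrays, rose in both (log2 1.73 and 1.51, adjusted p = 0.00554 and 0.011). The remaining one pointed up without passing (log2 1.52 and 1.35, adjusted p = 0.0532 and 0.0791).

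Of the 9 chaperones and helpers, 8 rose in wild-type and 7 in knockout cells, with median log2 changes of 1.31 and 1.25. Hsp90b1, the HSP90 of the ER known as GRP94, went from 3950 and 2829 to 13089 and 15171 in wild type and from 2663 and 4413 to 18846 and 17306 in the knockout. The states did not overlap, and the rise was 4.2-fold in wild-type (log2 2.07, SE 0.22, adjusted p = 3.28e-05) and 5.25-fold in knockout cells (log2 2.39, SE 0.22, adjusted p = 1.01e-05).

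The lectin chaperones calreticulin and calnexin hold glycoproteins while they fold. Calr read 6586 and 5613 in naive wild-type and 18487 and 16866 in activated wild-type cells, against 4993 and 5277 and then 18678 and 22715 in the knockout. It rose 2.9-fold and 4.0-fold (adjusted p = 6.87e-06 and 9.94e-07). Canx went from 10262 and 11282 to 27950 and 28125 in wild-type cells and from 9458 and 11550 to 32954 and 34235 in knockout cells, 2.6-fold and 3.21-fold (adjusted p = 6.33e-06 and 1.46e-06). For both genes the lowest activated array lay above the highest naive one.

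Sdf2l1, a partner of the BiP chaperone complex, was dim in naive cells, at 200 and 204 in wild type and 76.6 and 173 in the knockout. Activated wild-type cells reached 550 and 502, and the activated knockout 596 and 639, 2.48-fold and 4.78-fold higher (adjusted p = 0.00791 and 0.000222). Hyou1, the large nucleotide exchange factor of BiP, read 1123 and 1623 in naive and 4334 and 4957 in activated wild-type cells (3.4-fold, log2 1.77, SE 0.39, adjusted p = 0.00399). In the knockout it read 1958 and 1259 naive but 4321 and 1567 activated, so the 2 activated arrays disagreed and the groups overlapped (log2 0.72, adjusted p = 0.163). The other 2 tested Hyou1 probe sets, both dim, showed no such rise and did not pass. In wild-type and knockout cells 1 gave log2 0.08 and −0.17 and the other −1.09 and −1.43. The ER stress-induced genes Creld2 and Manf rose by 0.62 to 1.25 on the log2 scale in both genotypes, and Uggt1, which marks misfolded glycoproteins for another folding round, in wild-type cells (log2 1.01, adjusted p = 0.0141, against 0.45 and adjusted p = 0.225 in the knockout).

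Hspa5, which encodes BiP, the chaperone that holds the sensors inactive, was the 1 chaperone not called higher in wild-type cells. It read 17136 and 17060 in activated wild-type cells, a little under the 18373 and 21539 of naive ones (log2 −0.22, SE 0.12, adjusted p = 0.198), while a second probe set rose there (log2 0.81, adjusted p = 0.00172). In the knockout it went from 13232 and 11926 to 16686 and 19672 (log2 0.53, SE 0.12, adjusted p = 0.00583), and the second probe set rose by 1.69 (adjusted p = 9.32e-06). Adjusting for the Actb ratio turned the brightest probe set's knockout value to −0.58 (adjusted p = 0.786).

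The disulphide isomerases split. Pdia6 read 2367 and 2166 in naive and 7286 and 8950 in activated wild-type cells, and 2455 and 2942 and then 9301 and 9560 in the knockout, a rise of 3.55-fold and 3.49-fold (adjusted p = 3.9e-06 and 3.84e-06). Pdia3, the partner of calreticulin and calnexin, rose by 1.26 and 1.17 on the log2 scale (adjusted p = 0.000116 and 0.000178), and P4hb, the classical isomerase, by 0.82 and 1.32 (adjusted p = 0.000146 and 4.51e-06). Pdia4 ran the other way. It read 676 and 410 in naive and 348 and 226 in activated wild-type cells, 1.83-fold lower (log2 −0.87, SE 0.30, adjusted p = 0.0417), and 470 and 441 and then 284 and 227 in the knockout (log2 −0.80, adjusted p = 0.0545). The wild-type call was kept in 10 of 23 alternatives, and Erp44 did not pass in either genotype (log2 0.43 and 0.41).

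In ER-associated degradation, Edem1, which directs mannose-trimmed glycoproteins to disposal, rose in both genotypes (log2 0.69 in each, adjusted p = 0.0037 and 0.00341). Herpud1 and the ligase gene Syvn1 rose in wild-type cells (log2 0.85 and 0.68, adjusted p = 0.0199 and 0.00726) but not past the threshold in the knockout (0.30 and 0.32). Derl1, which acts in retrotranslocation to the cytosol, fell in both: it read 11541 and 8894 in naive and 5454 and 5378 in activated wild-type cells (1.87-fold, adjusted p = 0.000689), and 9028 and 7547 and then 5684 and 6283 in the knockout (1.38-fold, adjusted p = 0.0286). Its relative Derl2 rose in the knockout on its brightest probe set (log2 0.60, adjusted p = 0.00554) but fell on the other (log2 −0.84, adjusted p = 0.025), and the brightest gave 0.36 in wild type (adjusted p = 0.0642). Sel1l, the adaptor of the SYVN1 ligase, did not pass (log2 0.21 and 0.38).

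Ssr1, a subunit of the TRAP complex beside the translocon, read 2223 and 3084 in naive and 8479 and 8299 in activated wild-type cells, and 2024 and 2230 and then 11083 and 11594 in the knockout. That is a rise of 3.19-fold (log2 1.67, SE 0.16, adjusted p = 1.21e-05) and 5.3-fold (log2 2.41, SE 0.16, adjusted p = 8.46e-07). The other TRAP gene, Ssr3, rose by 1.29 and 1.62 on the log2 scale. Sec61a1, the channel itself, rose in the knockout (log2 0.76, adjusted p = 0.000376) and gave 0.26 in wild type (adjusted p = 0.108).

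Among the J proteins, which steer BiP to its substrates, Dnajc10 rose in both genotypes (log2 0.89 and 0.83, adjusted p = 0.000412 and 0.000638). Dnajb11 (−0.35 and −0.16) did not pass, nor did Dnajc3 on its brightest probe set (−0.14 and 0.20). Dnajb9 and the phosphatase subunit Ppp1r15a had the largest falls of the 34 in wild-type cells, and both also differed by genotype, as described below. Ppp1r15b, the constitutive partner of Ppp1r15a, lay between 1880 and 2831 on all arrays and did not pass (log2 −0.16 and −0.12).

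**Figure D2:**
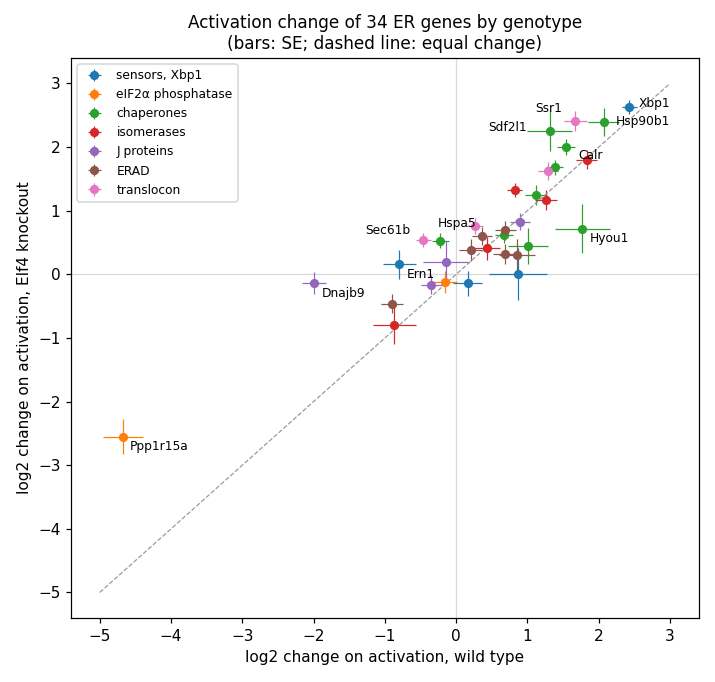
Log2 change on activation in wild-type cells (x axis) and in Elf4 knockout cells (y axis) for the 34 genes, each point 1 gene by its brightest probe set. Most points lie in the upper right with Xbp1 at 2.43 and 2.63, and Ppp1r15a lies at −4.68 and −2.55.

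The 2 activation comparisons share no arrays. They called 14 of the same members higher, 77.8% of each list of 18, and 2 of the same members lower, Derl1 and Ppp1r15a, which are 33.3% of the 6 lower in wild-type cells and both of those lower in knockout cells. Over all genes, the shared calls were 82.8% of those higher in wild-type and 80.5% of those higher in knockout cells, and 81.9% and 75.6% of those lower. The difference between these shares was not tested.

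The 8 members with an ER stress element had median log2 changes of 1.25 in wild-type and 1.46 in knockout cells, with 6 called higher and 0 lower in each genotype. The 20 without a match had medians of 0.56 and 0.50, with 10 higher and 5 lower in wild-type and 10 higher and 1 lower in knockout cells. The 6 without an entry had medians of 0.46 and 0.32. These are descriptions of small groups that overlap. Among the members whose sequences are shown above, Hsp90b1, Pdia6, Calr and Canx rose. Dnajc3 carries the same letters and did not pass in either genotype on its brightest probe set, while other Dnajc3 probe sets fell in both. Xbp1 and Ssr1, with no match, rose too.

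**Figure D3:**
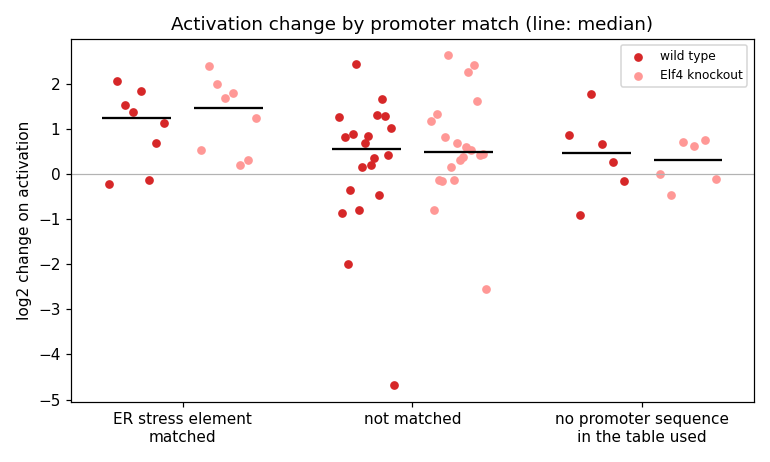
Log2 change on activation (y axis) of the members by whether the promoter held an ER stress element (8), did not (20) or had no entry (6), in wild-type and knockout cells; lines are medians. The medians with a match are 1.25 and 1.46, and the points of the groups overlap.

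The comparison of naive knockout with naive wild-type cells asks which of these genes differ between the Elf4 genotypes at rest. Ppp1r15a, Dnajb9 and Hspa5 fell in the knockout, and 0 members rose. These 3 are 8.82% of the members, against 0.837% of all genes called, 0.477% higher and 0.36% lower. The median log2 change of the members was −0.11, against 0.02 over all genes. An unadjusted p under 0.05 was found for 9 members (26.5%, against 14.0% of all genes), and the genotypes did not overlap for 17 (50.0%, against 39.7%). By limma without a trend in the prior variance 0 members passed, and by limma on just the 4 naive arrays 0 as well, where 3 and 5 of all probe sets were called. Without the second naive knockout array 1 member passed, Dnajb9.

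**Figure D4:**
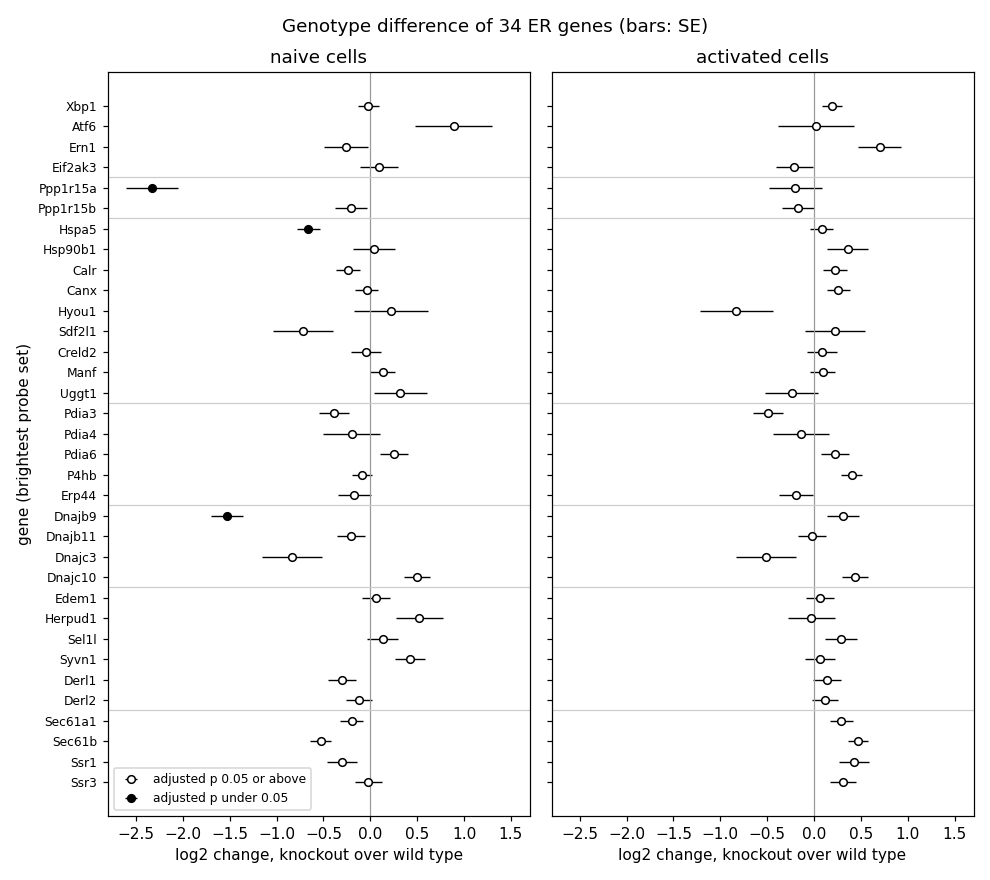
Log2 difference of knockout over wild type (x axis) with its SE for each of the 34 genes (y axis, by role) in naive cells on the left and activated cells on the right; filled points have an adjusted p under 0.05. Ppp1r15a at −2.33, Dnajb9 at −1.53 and Hspa5 at −0.66 are filled on the left, and 0 points are filled on the right.

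Ppp1r15a, known as GADD34, is the stress-induced subunit that leads protein phosphatase 1 to eIF2α and so restarts translation. It read 5514 and 6412 in naive wild-type cells (5963 ± 635) and 1436 and 954 in naive knockout cells (1195 ± 341). The knockout arrays were far below the wild-type ones, by 5.02-fold (log2 −2.33, SE 0.28, adjusted p = 0.008). Activated cells gave 217 and 216 in wild type and 250 and 138 in the knockout, which overlapped (log2 −0.20, adjusted p = 0.869). Ppp1r15a was thus 25.6-fold lower in activated than in naive wild-type cells (log2 −4.68, limma adjusted p = 4.89e-07). In knockout cells it was 5.86-fold lower (log2 −2.55, adjusted p = 3.12e-05). The difference between these falls was 2.13 on the log2 scale (SE 0.39) and did not pass (adjusted p = 0.0983). The naive call held in 20 of 23 alternatives and failed without the second naive knockout array (log2 −2.04, adjusted p = 0.0617).

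Ppp1r15a was the only member of the 28 whose promoter held a full cyclic AMP response element (TGACGTCA, searched on both strands, in 1.79% of all promoters). The last 60 bases before its start (chr7:45526269-45526328, minus strand) are shown with that element, 12 to 5 bases before the start, in capitals.
Ppp1r15a: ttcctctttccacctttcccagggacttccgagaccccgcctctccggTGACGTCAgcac

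Dnajb9, known as ERdj4, is a J protein that brings BiP to IRE1 and represses it. It read 4038 and 4089 in naive wild-type cells (4064 ± 35.8) and 1192 and 1625 in naive knockout cells (1409 ± 306), a 2.9-fold difference (log2 −1.53, SE 0.17, adjusted p = 0.00615). In activated cells it read 1034 and 990 in wild type and 1313 and 1208 in the knockout (log2 0.31, adjusted p = 0.583). Naive wild-type cells were thus the high group and the other 3 groups lay between 990 and 1625. Dnajb9 was 3.97-fold lower in activated than in naive wild-type cells (log2 −1.99, SE 0.17, limma adjusted p = 7.07e-06), while in the knockout the change was −0.14 (adjusted p = 0.553).

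The difference between the 2 activation changes of Dnajb9 was 1.85 on the log2 scale (SE 0.25, adjusted p = 0.0335). It was the 1 member of 34 (2.94%) with such a call, against 0.0861% of all genes. Unadjusted, 9 members had a p under 0.05 (26.5%, against 11.6% of all genes). The call was lost without any 1 of the 4 activated arrays, a fit that leaves 1 array in a group. The log2 values there were 1.79 to 1.91.

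Naive wild-type arrays gave 18373 and 21539 for Hspa5 (19956 ± 2239) and naive knockout arrays 13232 and 11926 (12579 ± 923). It was 1.58-fold lower in the knockout (log2 −0.66, SE 0.12, adjusted p = 0.0497), just past the threshold, and the call held in 7 of 23 alternatives. Its other 2 probe sets pointed the same way without passing (log2 −0.80 and −0.51, adjusted p = 0.0588 and 0.382). In activated cells the genotypes overlapped (log2 0.08, adjusted p = 0.882).

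**Figure D5:**
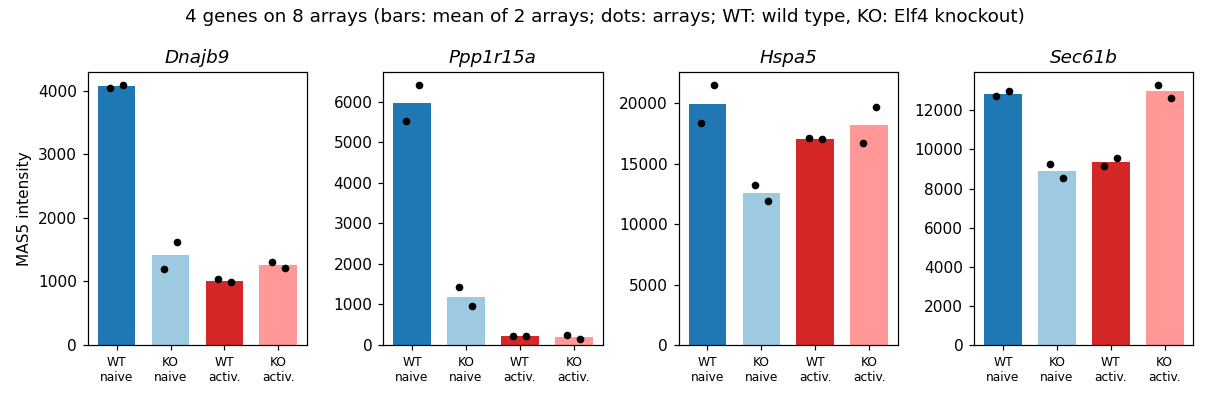
MAS5 intensity (linear axes from 0) of Dnajb9, Ppp1r15a, Hspa5 and Sec61b in the 4 groups; bars are means of 2 arrays and dots the arrays. Naive wild-type cells are highest for Dnajb9 (4064) and Ppp1r15a (5963), and Sec61b is high in naive wild-type and activated knockout cells.

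Sec61b, a small subunit of the translocon, was lower in the naive and higher in the activated knockout, without passing in either. Naive cells gave 12732 and 12970 in wild type and 9269 and 8527 in the knockout (log2 −0.53, SE 0.11, adjusted p = 0.071), and activated cells 9165 and 9569 against 13296 and 12621 (log2 0.47, SE 0.11, adjusted p = 0.128). It fell on activation in wild-type (log2 −0.46, adjusted p = 0.00633) and rose in knockout cells (log2 0.54, adjusted p = 0.00208). The difference of these changes, 1.0 (SE 0.15), had an adjusted p of 0.0558. It passed with an offset of 64, with robust estimation, with the mean of a gene's probe sets and without the first naive knockout array.

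Other genes and cell markers moved in the same naive comparison. The immediate early genes Jun, Dusp1 and Fos, named after their values were seen, fell with Ppp1r15a. Jun read 6164 and 5166 in wild type and 1456 and 979 in the knockout (adjusted p = 0.0058), and Dusp1 12895 and 18549 against 5335 and 3118 (adjusted p = 0.0136). All 3 were low in activated cells, where Jun read 198 to 342. Their part in the result was not tested.

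Some markers of other spleen cells were higher in naive knockout cells, 1 of plasma cells, 4 of granulocytes and 1 of NK cells past the threshold. The 8 measured of 10 plasma cell markers, whose ER is large, summed to 2368 and 1887 in naive wild-type and 11609 and 22341 in naive knockout cells. Of the 7 tested 1 passed, Igha, at 330 and 149 against 9201 and 16831. The sums in activated cells were 7856 to 8869, of which Irf4, also a gene of activated T cells, made 7153 to 7933, and Derl3 also belongs to the degradation genes below. Granulocyte markers (9 of 10 measured) summed to 449 and 753 against 4691 and 19695, with 4 of 8 tested higher in the knockout, and B cell markers (9 of 12) to 6864 and 5800 against 6409 and 14867, with 0 of 9. The sums of the 10 macrophage markers were 2671 and 3117 against 4368 and 7526, with 0 of 7, and of the 3 measured of 6 NK cell markers 547 and 2627 against 3048 and 5363, with Klra8 higher. The part of such cells in the genotype differences of the members was not tested.

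The comparison of activated knockout with activated wild-type cells found 0 of 34 members past limma's threshold, against 0.289% of all genes. An unadjusted p under 0.05 was found for 8 members (23.5%, against 12.6% of all genes), and the genotypes did not overlap for 22 (64.7%, against 50.9%). The median log2 difference was 0.10, against −0.01 over all genes. The 4 translocon and TRAP genes lay above 0, at 0.29 for Sec61a1, 0.47 for Sec61b, 0.43 for Ssr1 and 0.31 for Ssr3, with adjusted p of 0.128 to 0.465. Ern1 was at 252 and 306 in wild type against 413 and 512 for the knockout (log2 0.70, SE 0.23, adjusted p = 0.291). On just the 4 activated arrays limma called 4 members, Dnajc10, Sec61b and Ssr1 higher and Pdia3 lower, and 734 probe sets in all, against 59 with 8 arrays. The 2 genotype comparisons share no arrays, but with 8 arrays in the fit their tests share 1 estimate of spread.

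One member did pass on a dimmer probe set. The second probe set of Herpud1, which helps to assemble the degradation complex, gave 391 and 433 in activated wild-type cells against 890 and 1031 in the activated knockout, 2.28-fold higher (log2 1.19, SE 0.19, adjusted p = 0.037). Naive cells gave 809 and 799 in wild type and 1059 and 1252 in the knockout, and it fell on activation in wild type (log2 −0.94, adjusted p = 0.0023). The brighter probe set gave −0.03 between activated genotypes (adjusted p = 0.985) and rose on activation in wild type, so the 2 probe sets disagree.

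A further 167 genes of the same pathways were listed beside the members, of which 160 had a named probe set and 157 were tested. On activation 49 rose and 33 fell in wild-type and 59 rose and 32 fell in knockout cells, with medians of 0.23 and 0.19. These are 31.2% higher and 21.0% lower in wild-type cells, beside 21.3% and 24.1% of all genes, and 37.6% and 20.4% in knockout cells, beside 21.9% and 26.1%. No list below was tested against the others or against all genes. Of 15 tested genes of the ATF4 and CHOP branch, which PERK drives, 10 rose and 3 fell in wild-type and 11 rose and 2 fell in knockout cells, with medians of 2.86 and 2.96 (66.7% higher in wild-type and 73.3% in knockout cells). Asns, which makes asparagine, read 9.3 and 8.9 in naive wild-type and 12822 and 13025 in activated wild-type cells (log2 9.01, adjusted p = 2.52e-08). Cth, an enzyme of cysteine synthesis, rose by 7.94 and 8.67 and Trib3, a pseudokinase induced by ATF4, by 3.18 and 2.96 in wild-type and knockout cells. Ddit3, which encodes CHOP and is named here after its values were seen, fell in wild-type cells, from 787 and 1322 to 429 and 390 (log2 −1.29, SE 0.26, adjusted p = 0.00225), and went from 750 and 629 to 610 and 505 in the knockout (log2 −0.30, adjusted p = 0.385). Cebpb, a transcription factor, fell in wild-type cells too (log2 −1.81, adjusted p = 0.00101). Asns and Cth also answer to signals outside the ER.

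Of 23 tested oxidoreductases and other folding enzymes, 9 rose and 5 fell in wild-type and 11 rose and 4 fell in knockout cells (39.1% and 21.7%, then 47.8% and 17.4%). Ero1a, which reoxidises the isomerases, read 1230 and 1127 in naive and 10158 and 13174 in activated wild-type cells, and 1450 and 1587 and then 22576 and 22268 in the knockout (log2 3.28 and 3.87, adjusted p = 8.07e-08 and 3.02e-08). It was the 1 gene of the 157 that differed between activated genotypes (log2 0.95, adjusted p = 0.0337). Prdx4, a peroxidase of the ER, rose by 3.72 and 4.59 in the 2 genotypes.

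Of 30 genes of N-glycosylation 10 rose and 5 fell in wild-type (33.3% and 16.7%) and 14 rose and 5 fell in knockout cells (46.7% and 16.7%). Those that rose in both included the oligosaccharyltransferase genes Rpn1 (log2 1.47 and 1.30) and Stt3b (1.26 and 1.31). Of 21 further translocon and signal peptidase genes 6 rose and 4 fell in wild-type and 7 rose and 3 fell in knockout cells (28.6% and 19.0%, then 33.3% and 14.3%). Spcs3 was up by 1.33 and Sec62 down (log2 −1.06) in wild type. Of 26 COPII and ER to Golgi genes 8 rose and 4 fell in wild-type cells, and 9 rose and 4 fell in the knockout (30.8% and 15.4%, then 34.6% and 15.4%). Called in wild-type cells were thus 46.2% of them, near the 45.4% of all genes. Of 19 further degradation genes 2 rose and 6 fell in each genotype (10.5% and 31.6%), with Rnf5, a membrane ligase, at −1.28 and −1.32 and Os9, a lectin of the SYVN1 complex, at −1.08 and −1.19. Of 23 other regulators of the response 4 rose and 6 fell in wild-type and 5 rose and 8 fell in knockout cells (17.4% and 26.1%, then 21.7% and 34.8%). Stim1, the calcium sensor of the ER, was at −1.50 and −1.43. Over all genes 21.3% were higher and 24.1% lower in wild-type cells, and 21.9% and 26.1% in knockout cells.

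In naive cells 3 of the 157 differed by genotype. Asns (log2 1.69, adjusted p = 0.0403) was higher, at 9.3 and 8.9 in wild type against 38.5 and 104 in the knockout. These values are near the floor, as the median intensity of the naive arrays was 70.7 to 86.2. Asns passed the filter on dim signal only with its activated arrays, so this call says little. The isomerase gene Txndc5 (log2 1.02, adjusted p = 0.0286) was higher too, at 1224 and 1024 against 2194 and 2378. Cebpb was lower, at 870 and 816 against 278 and 198 (log2 −1.78, adjusted p = 0.0415).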

How the data were processed

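RNA from 8 samples of spleen CD8+ T cells was hybridised to Affymetrix arrays, 2 per group. The authors deposited 1 linear intensity per probe set and array, made with MAS5 per the submitters' processing notes (version not given in the sources used here). Every array had a 2% trimmed mean of 500 in the deposited intensity table, so it had been scaled. Of 45101 probe sets 34958 had 1 gene symbol in the platform annotation, updated through Entrez identifiers for 34754. Detection calls were not used.

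Here log2(intensity + 16) was fitted with 4 group means over all 8 arrays in limma 3.58.1 (R 4.3.3, lmFit, eBayes with a trend, two-sided, residual df 4, prior df 6.7). The 64 controls were left out. Probe sets at or above the array median on at least 2 arrays were tested (27348, of which 12782 were the brightest of a gene). The fit was tested on simulated data. Members, gene lists, named genes and alternatives were chosen with earlier results of these data known. All members were counted. Those described in full passed between genotypes, were among the 6 largest rises or falls on activation, or are sensors and regulators. Promoter letters came from RefSeq (GRCm38.p6). The alternatives were other offsets, scalings, filters and priors, fits of 4 arrays, a replicate block, the Actb ratio as a covariate, other probe set rules, a minimum fold, and leaving out each array.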

Additional observations from a re-analysis of the deposited data

Results flagged for a closer look

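Dnajb9 changed differently on activation in the 2 genotypes. The test of that difference gave 1.85 on the log2 scale (SE 0.25, limma adjusted p = 0.0335), from a change of −1.99 in wild-type cells and −0.14 in knockout cells. The wild-type arrays did not overlap between states (4038 and 4089 naive, 1034 and 990 activated), while the knockout arrays did (1192 and 1625 naive, 1313 and 1208 activated). The call was kept in 14 of 22 alternatives, and its log2 value lay between 1.63 and 2.07 in all 22. Dnajb9 has 1 probe set on the array, so no second probe set bears on it.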

How the results depend on the processing

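Members called in naive cells (3) numbered 0 without a trend and 0 in the fit of 4 arrays, and 1 to 3 when 1 array was left out. In activated cells the count (0) was 4 in the fit of 4 arrays and 0 in every fit without 1 array. For activation, the 24 calls in wild-type and 20 in knockout cells became 1 and 0 once the Actb ratio entered as a covariate, and 14 and 12 with a log2 change of at least 1. Without 1 array they lay between 18 and 24 and between 19 and 22. The single difference between genotypes in activation (1) was 2 with an offset of 64, with robust estimation and with the mean of a gene's probe sets. It was 0 with centred arrays, without a trend, with the Actb ratio and with the replicate block, and 0 to 2 without 1 array. The direction turned for Herpud1 (−0.05) and Derl2 (−0.12) with the mean of probe sets, for Syvn1 (−0.17) without probe sets open to cross-hybridisation, and for Pdia4 (0.29) and Hspa5 (−0.58, knockout) with the Actb ratio. The causes were not tested.

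The labels number the arrays 1 and 2 in both states of each genotype. Deviations of same-numbered arrays correlated at −0.167 to 0.069 between groups, with 0.069 between the states in wild-type and −0.036 in knockout cells. Such low values cannot show that arrays are unpaired, because single arrays also carry technical spread. Eif2s3y, a gene of the Y chromosome, read at least 2537 in every naive sample and at most 44.0 in every activated one. Xist ran the opposite way, at 60.3 to 172 in naive and 7703 to 10011 in activated samples. Naive samples thus show a male and activated samples a female pattern. By these genes a number does not stand for the same animal in both states. Whether it stands for anything else that the states share was not tested. With the replicate block the 5 counts were 2, 0, 24, 21 and 0, and with a crossed replicate block, added after seeing the data, 3, 0, 24, 21 and 1. The fit without a trend called 3 of all probe sets in naive cells, against 154, and the Actb covariate left 484 and 0 for activation, against 10714 and 11395. Atf6, Sdf2l1 in naive cells and the dimmer probe sets are dim, and MAS5 detection calls were not used, which limits what can be said of them.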

Other observations

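Several members have probe sets that disagree on activation. Of the 24 members called in wild-type cells, 15 had other tested probe sets, 26 in all, of which 20 moved the same way, 11 of them past the threshold, and 2 passed in the opposite direction. Of the 20 called in knockout cells, 13 had 27 others, of which 23 moved the same way, 13 past the threshold, and 3 passed in the opposite direction.

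Dnajc3, the J protein known as p58IPK, is one of them. Its brightest probe set gave 0.20 in knockout cells (adjusted p = 0.666), while its other 3 tested probe sets fell by 1.09, by 1.24 and by 0.87 on the log2 scale (adjusted p = 0.00357, 0.00245 and 0.00544). In wild-type cells the same 3 gave −1.34, −0.33 and −0.76 (adjusted p = 0.00103, 0.341 and 0.0125), against −0.14 on the brightest. Sec61a1 rose on its brightest probe set in knockout cells, and 1 of its 5 others fell there by 1.17 and in wild-type cells by 1.60. The second probe set of Syvn1 read 793 and 750 in naive and 354 and 382 in activated knockout cells (log2 −1.04, adjusted p = 0.00147), against 0.32 on the brightest. Derl2 read 605 and 746 in naive and 385 and 354 in activated knockout cells on its second probe set (log2 −0.84, adjusted p = 0.025), against 0.60 on the brightest. In knockout cells Ssr1 rose by 2.41 and 2.79 on its 2 brighter probe sets and fell by 1.35 on a dim one (adjusted p = 0.0343). Which transcripts these probe sets read was not analysed here.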
